A study of Danio rerio with 6 samples.

Results

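Complement and coagulation genes were examined in zebrafish libraries labelled intestinal, from embryos at 5 days after fertilization that had been exposed to BP-3 or kept as WT controls. The set was a list of 50 gene names, 27 of complement (components, their activating proteases and regulators) and 23 of coagulation (factors, fibrinogen chains, inhibitors and fibrinolytic proteins). Members were the rows of the count tables whose name equals a listed name. Of the 28715 distinct names in the tables, 47 matched, 25 of complement and 22 of coagulation. The names c4b, cfi and procb matched no row and were not analysed here. The names c6 and proca stood on 2 rows each, and the row with the higher total was used.

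Each of the 2 groups, called BP_3 and WT in the titles, had 3 libraries of total RNA from dissected tissue, with total counts between 23567603 and 41726516. BP_3 embryos were incubated in 2 mg/L of BP-3 (the labels give only this short name, which usually stands for benzophenone-3, a sunscreen compound), and WT embryos are labelled control with no further treatment given. BP_3 replicates 2 and 3 carry BP-4 and BP-5 in the treatment field, but their titles and the shared protocol give BP-3, so the 3 libraries were treated as 1 group. The origin of the replicates, from separate clutches or from 1 pool, is not labelled, and p-values here reflect spread between libraries that may be technical.

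Complement is a cascade of blood proteins that tags and lyses microbes. C1q or mannose-binding lectin with its proteases starts it, the C3 convertases amplify it, and C5 to C9 form the pore of the membrane attack complex. Coagulation starts when tissue factor on cells meets factor VII in plasma, runs through factors X, V and thrombin, and ends in fibrin, which plasmin dissolves. In vertebrates most of these plasma proteins are made by hepatocytes, whereas C1q comes mainly from macrophages and tissue factor is a membrane protein of cells around vessels. Teleost fish carry several C3 genes.

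Levels are given as CPM, counts relative to library size after TMM scaling, and fold changes are BP_3 over WT. Calls come from edgeR's quasi-likelihood test at an adjusted p of 0.05, with Benjamini-Hochberg adjustment over all 23167 rows tested. All 16 anterior enterocyte markers, genes of the absorptive cells of the anterior gut, had counts. Their sum was 4437 to 5548 CPM in WT and 6576 to 7417 CPM in BP_3. The 29 hepatocyte markers, none of them a member, summed to 10660 to 11330 CPM in WT and 15800 to 16570 CPM in BP_3. Apolipoprotein genes, which gut and yolk cells express too, made up 51.1% to 58.4% of this sum. The other markers summed to 4925 to 5540 CPM in WT and 6587 to 7242 CPM in BP_3. Transcripts used here as liver markers were thus abundant in libraries labelled intestinal. In such bulk samples more cells of a type and more RNA per cell cannot be told apart.

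Genes of both cascades were higher in BP_3, by modest amounts. Of 46 members that passed the filter on low counts, 20 were called higher (43.5%), where 6.26% of all rows tested were called higher. None was called lower by edgeR, against 4.29% of all rows. At an unadjusted p under 0.05 the counts were 27 higher and 0 lower, and DESeq2 and limma-voom also called 0 lower. The called members rose between 1.23-fold and 2.01-fold, with a median of 1.49-fold, and their adjusted p-values from edgeR lay between 0.000141 and 0.029. The median log2 fold change was 0.34 over the 46 members and 0 over all rows, and 89.1% of the members were above 0 against 49% of all rows. In 28 members every BP_3 library was above every WT library (60.9%, against 16.1% of all rows tested), and in 0 members every BP_3 library was below (14.9% of all rows).

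Members with more counts behind them were called more often. Of the 23 members at or above the median of 35.4 CPM, 17 were called, and of the 23 below it, 3 were called, namely c7b, f9b and kng1. The share called of all rows at such levels was not made. The 6.26% of all rows is therefore not a baseline matched for level. The standard error of the log2 fold change ran from 0.06 to 0.39 among the members. The calls of c3b.2, f5 and f10 were each lost when single libraries were left out, with edgeR adjusted p up to 0.113, 0.117 and 0.101, and the other 17 calls held in all 6 such fits. With BP_3 replicate 1 as the only exposed library, 4 complement and 6 coagulation members were called higher and fga was called lower.

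**Figure D1:**
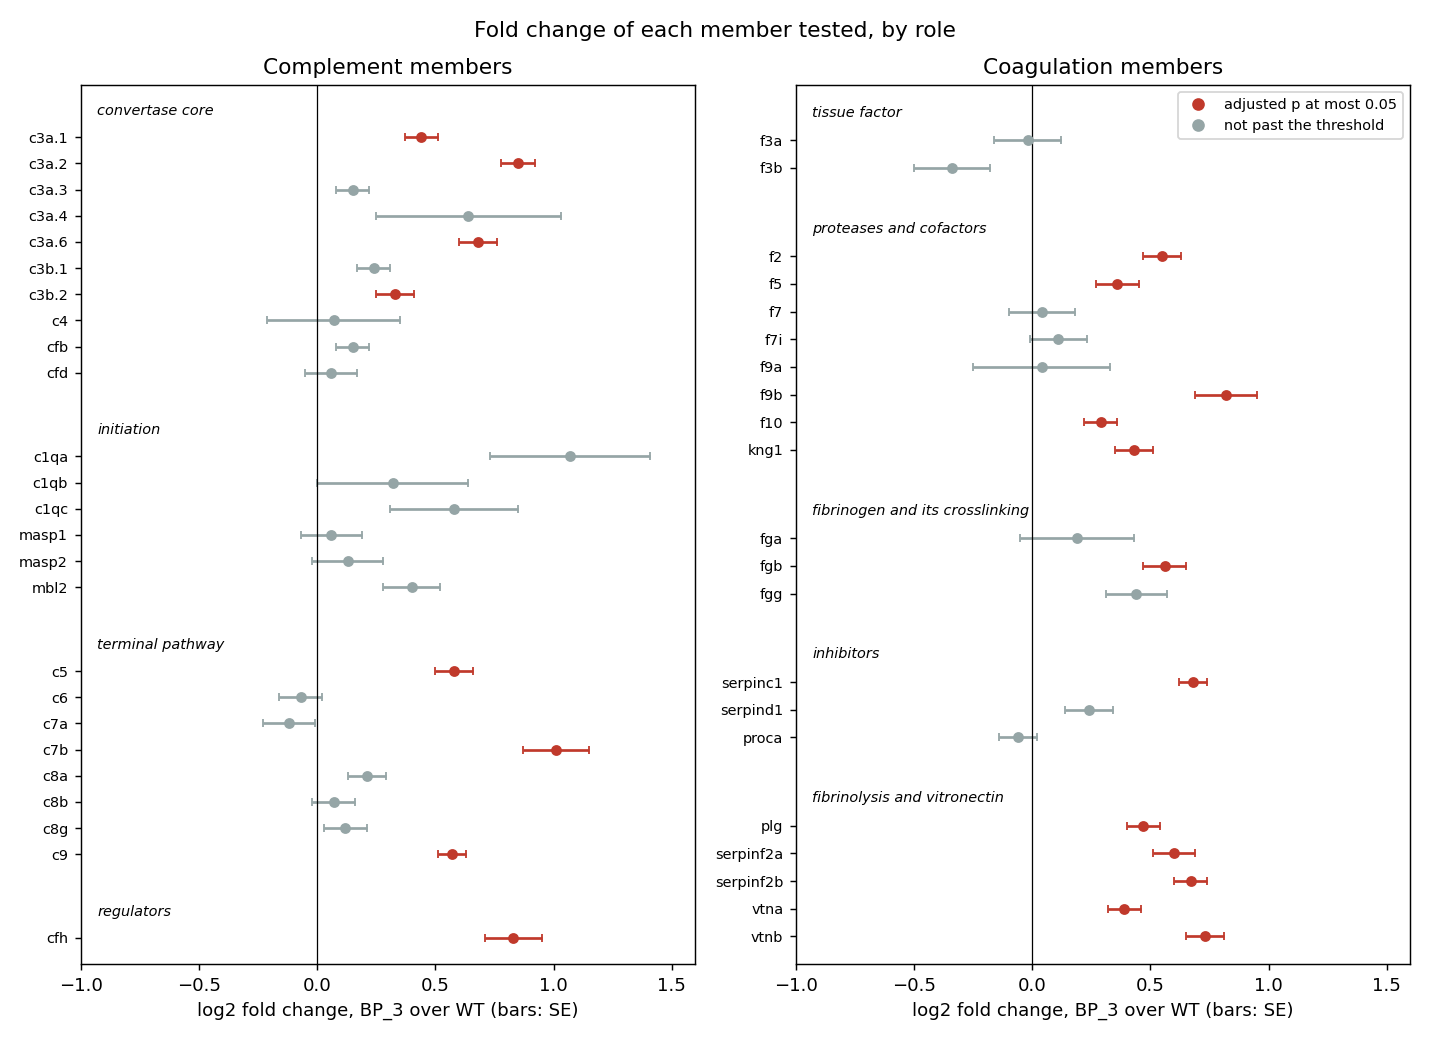
Log2 fold change, BP_3 over WT, of each of the 46 members tested, grouped by role, with complement on the left and coagulation on the right (points, estimate; bars, SE; red, adjusted p at most 0.05). All 20 red points lie to the right of 0, and the lowest point is f3b at -0.34.

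Among the C3 genes, whose product C3 is the central protein that all complement pathways cleave, 4 of 7 rose. Over all rows tested 6.26% were called higher, and in 16.1% every BP_3 library was above every WT library. The most counted, c3a.1, lay at 337, 351 and 316 CPM in BP_3 replicates 1 to 3 and at 242, 252 and 245 CPM in WT. It rose 1.36-fold (log2 fold change 0.44 ± 0.07 SE, edgeR adjusted p = 0.00342), and its groups did not overlap. The gene c3a.2 had 47.3, 52.7 and 47.2 CPM in BP_3 and 26.9, 27.5 and 27.4 CPM in WT. Its rise of 1.8-fold (0.85 ± 0.07 SE, edgeR adjusted p = 0.000141) had the smallest adjusted p of all members. Levels of c3a.6 were 47.6, 45.5 and 41.6 CPM in BP_3 and 28.6, 28.4 and 27 CPM in WT, a rise of 1.6-fold. For c3b.2 they were 85.1, 88.4 and 87.9 CPM against 65.6, 65.9 and 76.5 CPM, a rise of 1.26-fold with a wider spread in WT. Neither c3a.3 (1.11-fold) nor c3b.1 (1.18-fold, edgeR adjusted p = 0.054) passed, although in both every BP_3 library was above every WT library. With the replicate number as a block c3b.1 passed (adjusted p = 0.00573). The row c3a.4 held 14 to 46 counts per library and did not pass.

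The C3 genes are related copies, and in RefSeq's gene table c3a.2 stands next to c3a.3 and c3b.2 next to c3b.1. Sequences of the copies were not compared here, so how surely reads were divided among them is not known. Their summed level, which counts each assigned read whichever copy it went to, was 696, 732 and 683 CPM in BP_3 and 525, 541 and 538 CPM in WT, 1.32 times as high on average. Within that sum the copies did not keep 1 proportion. Counts of c3a.2 per count of c3a.1 were 0.14 to 0.15 in BP_3 and 0.109 to 0.112 in WT, while counts of c3a.3 per count of c3a.1 were 0.252 to 0.294 in BP_3 and 0.319 to 0.342 in WT. These ratios were picked after their values were seen and were not tested.

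The other genes of the convertases did not pass. The protease genes cfb and cfd, which build and activate the alternative pathway convertase, had fold changes of 1.11 and 1.04. For cfd the libraries overlapped, with 131, 135 and 110 CPM in BP_3 and 130, 129 and 102 CPM in WT, and replicate 3 was the lowest in both groups. The gene c4, whose product is part of the classical and lectin convertase, lay at 8.66, 8.8 and 9.06 CPM in BP_3 and at 13.4, 5.98 and 5.41 CPM in WT. WT replicate 1 was thus above all other libraries and WT replicates 2 and 3 were below all of them. Without WT replicate 1, c4 passed with a log2 fold change of 0.63 (edgeR adjusted p = 0.033), and without WT replicate 2 or 3 it was at -0.11 and -0.15. The regulator gene cfh, encoding factor H, which restrains the alternative pathway convertase, rose 1.78-fold (0.83 ± 0.12 SE, edgeR adjusted p = 0.00279). It lay at 48.3, 62.6 and 67.7 CPM in BP_3 and at 33.4, 30.4 and 36.7 CPM in WT, and the lowest BP_3 library was above the highest WT library.

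**Figure D2:**
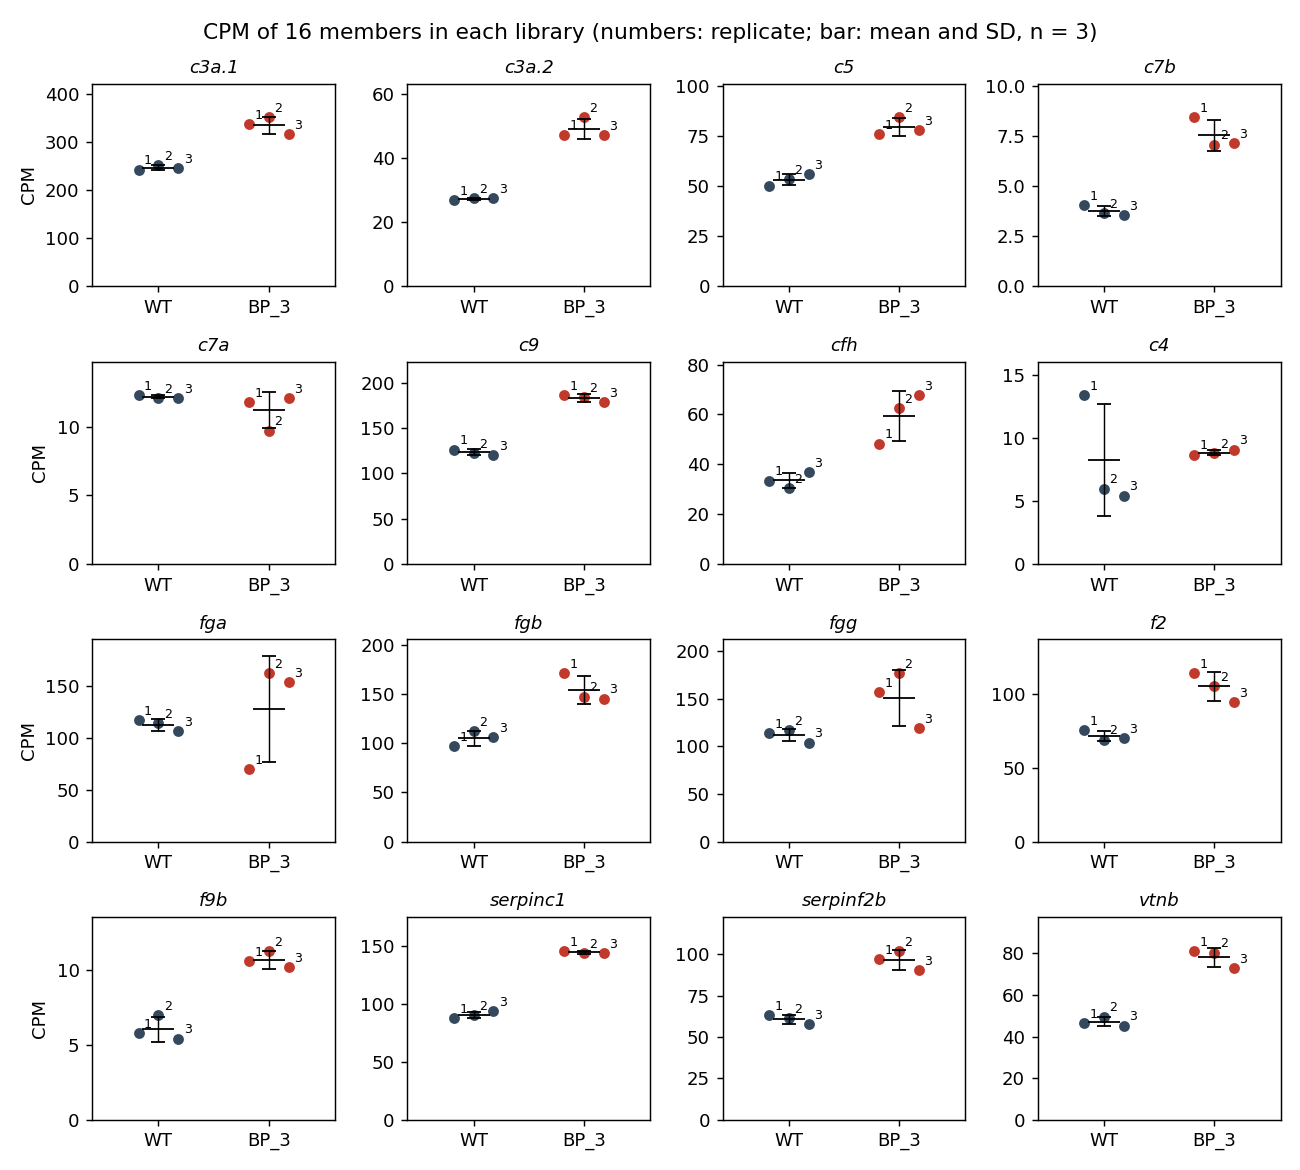
CPM of 16 members in each library (points, numbered by replicate; bar and whiskers, mean and SD of 3 libraries; each axis starts at 0). In c3a.2 and c9 the groups are far apart and tight, while BP_3 replicate 1 of fga at 69.9 CPM and WT replicate 1 of c4 at 13.4 CPM stand away from their groups.

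None of the 6 initiation genes passed, although all 6 had a log2 fold change above 0, as 49% of all rows tested did. The mannose-binding lectin gene mbl2 came closest among the hepatic ones, at 13.6, 14.5 and 13.1 CPM in BP_3 and 11.9, 9.06 and 10.1 CPM in WT. Its fold of 1.32 had an edgeR adjusted p of 0.054, and 0.0234 with the replicate block. The lectin pathway protease genes masp1 and masp2 had folds of 1.04 and 1.1 with overlapping groups. For masp1 the values were 5.56, 5.87 and 6.49 CPM in BP_3 and 5.78, 6.02 and 5.33 CPM in WT.

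The C1q chain genes were at the edge of detection, with 9 to 95 counts per library. For c1qa the counts were 45, 40 and 26 in BP_3 and 24, 9 and 14 in WT, or 1.09, 1.15 and 1.06 CPM against 0.661, 0.315 and 0.578 CPM. Its log2 fold change of 1.07 ± 0.34 (SE) was the highest of all members and did not pass (edgeR adjusted p = 0.0715), whereas it did with a filter of 1 CPM in 3 libraries (0.0466). Since c1qa met that filter only through the BP_3 libraries, where it was high, that pass adds no support. For c1qb the levels were 0.849, 1.29 and 1.43 CPM in BP_3 and 0.799, 1.19 and 0.826 CPM in WT. For c1qc they were 2.3, 1.75 and 1.39 CPM in BP_3 and 1.07, 1.19 and 1.45 CPM in WT, and in both genes the groups overlapped. The 15 macrophage markers summed to 156 to 162 CPM in WT and 192 to 216 CPM in BP_3. Of these markers 4 were called, all higher (26.7%, against 6.26% of all rows tested), and none was at 0 in all libraries. Their part in the C1q values was not tested.

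Of the 8 terminal pathway genes, c5, c7b and c9 rose and 5 did not pass, where 6.26% of all rows tested were called higher. The gene c5, whose product is cut to start the pore, lay at 76.1, 84.5 and 78.2 CPM in BP_3 and 50.3, 53.5 and 56 CPM in WT, a rise of 1.49-fold (edgeR adjusted p = 0.00127). The gene c9, encoding the unit that lines the pore, lay at 186, 184 and 178 CPM in BP_3 and 126, 122 and 120 CPM in WT, also a rise of 1.49-fold (edgeR adjusted p = 0.000523). In both genes the groups were well apart. For c7b the levels were 8.44, 7.08 and 7.14 CPM in BP_3 and 4.05, 3.64 and 3.55 CPM in WT, and its 2.01-fold rise (1.01 ± 0.14 SE, edgeR adjusted p = 0.00155) was the largest among called members.

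Its paralogue c7a lay at 11.8, 9.72 and 12.1 CPM in BP_3 and 12.3, 12.1 and 12.1 CPM in WT, with a log2 fold change of -0.12 ± 0.11 (SE). Counts of c7b per count of c7a were accordingly 0.716, 0.729 and 0.589 in BP_3 and 0.329, 0.301 and 0.293 in WT. This ratio was also chosen after its values were seen. The C8 chain genes c8a, c8b and c8g, whose products join into 1 complex, had folds of 1.16, 1.05 and 1.08, and their summed level was 64.5 to 70.6 CPM in BP_3 and 57.9 to 64.3 CPM in WT. For c6 the estimate was -0.07 ± 0.09 (SE) on the log2 scale. The genes of 1 pore thus did not move by 1 factor, with estimates from -0.12 for c7a to 1.01 for c7b on the log2 scale.

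The coagulation cascade starts at tissue factor, and its genes f3a and f3b did not pass. For f3a the levels were 8.42, 9.2 and 10.2 CPM in BP_3 and 7.57, 10.2 and 10.4 CPM in WT. For f3b they were 6.36, 4.24 and 4.73 CPM in BP_3 and 6.14, 6.96 and 6.48 CPM in WT, with a log2 fold change of -0.34 ± 0.16 (SE, edgeR adjusted p = 0.223). The groups overlapped in both genes, and f3b had the lowest estimate of all members.

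Among the 8 genes of proteases and cofactors 5 rose, where 6.26% of all rows tested were called higher. The prothrombin gene f2 lay at 114, 105 and 94.5 CPM in BP_3 and 75.5, 69.1 and 70 CPM in WT, a rise of 1.46-fold (edgeR adjusted p = 0.00324). The gene f9b, 1 of 2 factor IX genes, lay at 10.6, 11.3 and 10.2 CPM in BP_3 and 5.78, 7 and 5.41 CPM in WT and rose 1.77-fold (0.82 ± 0.13 SE, edgeR adjusted p = 0.00326). Its paralogue f9a was listed with 22 to 37 counts per library and its log2 fold change was 0.04 with a wide error of 0.29 (SE).

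Factor X and its cofactor, which together turn prothrombin into thrombin, had smaller fold changes. The gene f10 lay at 56.5, 57.3 and 59.3 CPM in BP_3 and 45.6, 47.7 and 47.9 CPM in WT (1.23-fold, edgeR adjusted p = 0.0225). The cofactor gene f5 lay at 40.2, 44.6 and 48.3 CPM in BP_3 and 32, 34.9 and 36.5 CPM in WT (1.29-fold, edgeR adjusted p = 0.029). Both are among the 3 calls lost when single libraries were left out. In those fits the log2 fold change stayed at 0.27 to 0.31 for f10 and at 0.3 to 0.43 for f5. The kininogen gene kng1 lay at 41.6, 39.3 and 37.2 CPM in BP_3 and 31, 28.4 and 28.2 CPM in WT, a rise of 1.35-fold. The factor VII gene f7 had 7.98, 6.45 and 8.57 CPM in BP_3 and 7.9, 7.77 and 6.57 CPM in WT. Its groups overlapped, as did those of f7i, a factor VII relative that in zebrafish is known as an inhibitor (1.08-fold). The genes f7, f7i and f10 are neighbours in RefSeq's gene table, and of these f10 was called.

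The fibrinogen chain genes differed in how well their libraries matched. The products of fga, fgb and fgg assemble in equal numbers into fibrinogen, the precursor of fibrin. For fgb the levels were 171, 147 and 145 CPM in BP_3 and 96.8, 112 and 106 CPM in WT, a rise of 1.47-fold (edgeR adjusted p = 0.00367). For fgg they were 157, 177 and 119 CPM in BP_3 and 114, 117 and 104 CPM in WT, without overlap, at 1.35-fold (edgeR adjusted p = 0.0533, and 0.00247 with the replicate block). For fga they were 69.9, 162 and 153 CPM in BP_3 and 117, 114 and 106 CPM in WT. BP_3 replicate 1 was thus the lowest of all libraries in fga and the highest in fgb. Counts of fga per count of fgb were 0.409 in that library and 1 to 1.21 in the other 5. With all libraries the estimate for fga was 0.19 ± 0.24 (SE) on the log2 scale, and without BP_3 replicate 1 it passed at 0.49 (edgeR adjusted p = 0.0123). The gene f13b, for the carrier subunit of the fibrin-crosslinking factor XIII, had 0 counts in all libraries, which allows up to 3 counts or 0.0719 to 0.127 CPM per library.

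Of the inhibitor genes serpinc1 rose and serpind1 and proca did not pass. Antithrombin, the product of serpinc1, blocks thrombin and factor X. Its gene lay at 146, 144 and 144 CPM in BP_3 and 87.8, 90.3 and 93.7 CPM in WT (1.6-fold, 0.68 ± 0.06 SE, edgeR adjusted p = 0.000229), with the BP_3 libraries nearly level. The heparin cofactor gene serpind1 was higher in every BP_3 library at 1.18-fold (edgeR adjusted p = 0.186). The protein C gene proca lay at 24.6, 25.5 and 24.1 CPM in BP_3 and 26.8, 27 and 23.7 CPM in WT, with a log2 fold change of -0.06 ± 0.08 (SE). This holds for the row used. The less counted row named proca held 355, 326 and 217 counts in BP_3 and 262, 212 and 178 in WT. Relative to total counts, every BP_3 library was above every WT library in that row.

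All 5 genes of fibrinolysis and vitronectin rose, without overlap of the groups. The shares of all rows tested were 6.26% called higher and 16.1% higher without overlap. The plasminogen gene plg, whose product becomes plasmin, lay at 171, 181 and 159 CPM in BP_3 and 128, 120 and 122 CPM in WT (1.38-fold, edgeR adjusted p = 0.00323). Genes of its inhibitor antiplasmin rose too. The gene serpinf2a lay at 51.5, 53.3 and 43.2 CPM in BP_3 and 33.5, 33.9 and 30 CPM in WT (1.52-fold), and serpinf2b at 97.1, 102 and 90.5 CPM in BP_3 and 63, 61.4 and 57.8 CPM in WT (1.59-fold, edgeR adjusted p = 0.000499). Vitronectin is an adhesive plasma protein that binds both the membrane attack complex and a plasminogen activator inhibitor. Its gene vtnb lay at 81.2, 80.4 and 72.9 CPM in BP_3 and 46.4, 49.5 and 45.3 CPM in WT (1.66-fold, edgeR adjusted p = 0.000353). Its paralogue vtna lay at 47.3, 45.5 and 48 CPM in BP_3 and 37.4, 34 and 36.3 CPM in WT (1.31-fold). Both the protease and its inhibitor were therefore higher in the same libraries.

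**Figure D3:**
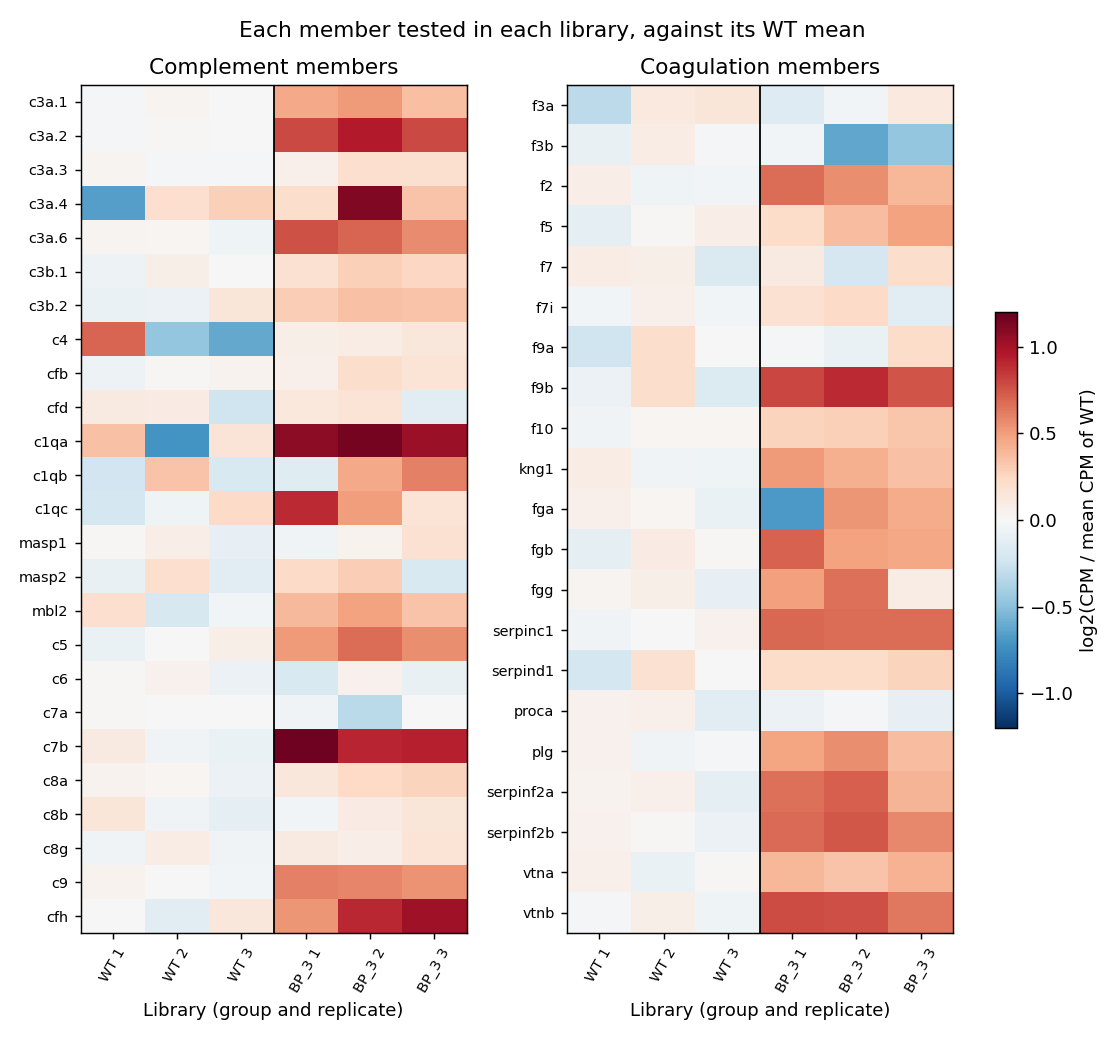
Log2 of CPM over the WT mean for each of the 46 members tested (rows, in order of role) in each library (columns; black line between WT and BP_3; red, above the WT mean; blue, below). Most rows are red in all 3 BP_3 columns, and fga in BP_3 replicate 1 and f3b in BP_3 replicates 2 and 3 are blue.

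Set side by side, 12 of 21 coagulation members tested were called higher (57.1%) and 8 of 25 complement members (32%). The share called higher of all rows tested was 6.26%. The median log2 fold changes were 0.39 for coagulation and 0.32 for complement, and the ranges overlapped widely, at -0.34 to 0.82 and -0.12 to 1.07. Summed over members, complement lay at 1343, 1416 and 1331 CPM in BP_3 and 1063, 1067 and 1037 CPM in WT, 1.29 times as high on average. The coagulation sum was 1333, 1425 and 1301 CPM in BP_3 and 985, 999 and 961 CPM in WT, 1.38 times as high. The ratio of the complement to the coagulation sum was 1.01, 0.994 and 1.02 in BP_3 and 1.08, 1.07 and 1.08 in WT, so coagulation gained slightly on complement in every BP_3 library. The order was the same with the most counted member c3a.1 left out, at 0.748 to 0.78 in BP_3 and 0.815 to 0.834 in WT. Within coagulation the sums rose most for fibrinolysis and vitronectin (1.48 times) and inhibitors (1.42). Proteases and cofactors were at 1.34, fibrinogen at 1.32 and tissue factor at 0.903. The larger complement roles were at 1.25 (convertase core) and 1.35 (terminal pathway). No ratio was made without the fibrinolysis and vitronectin genes. These sums describe chosen genes and carry no test.

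**Figure D4:**
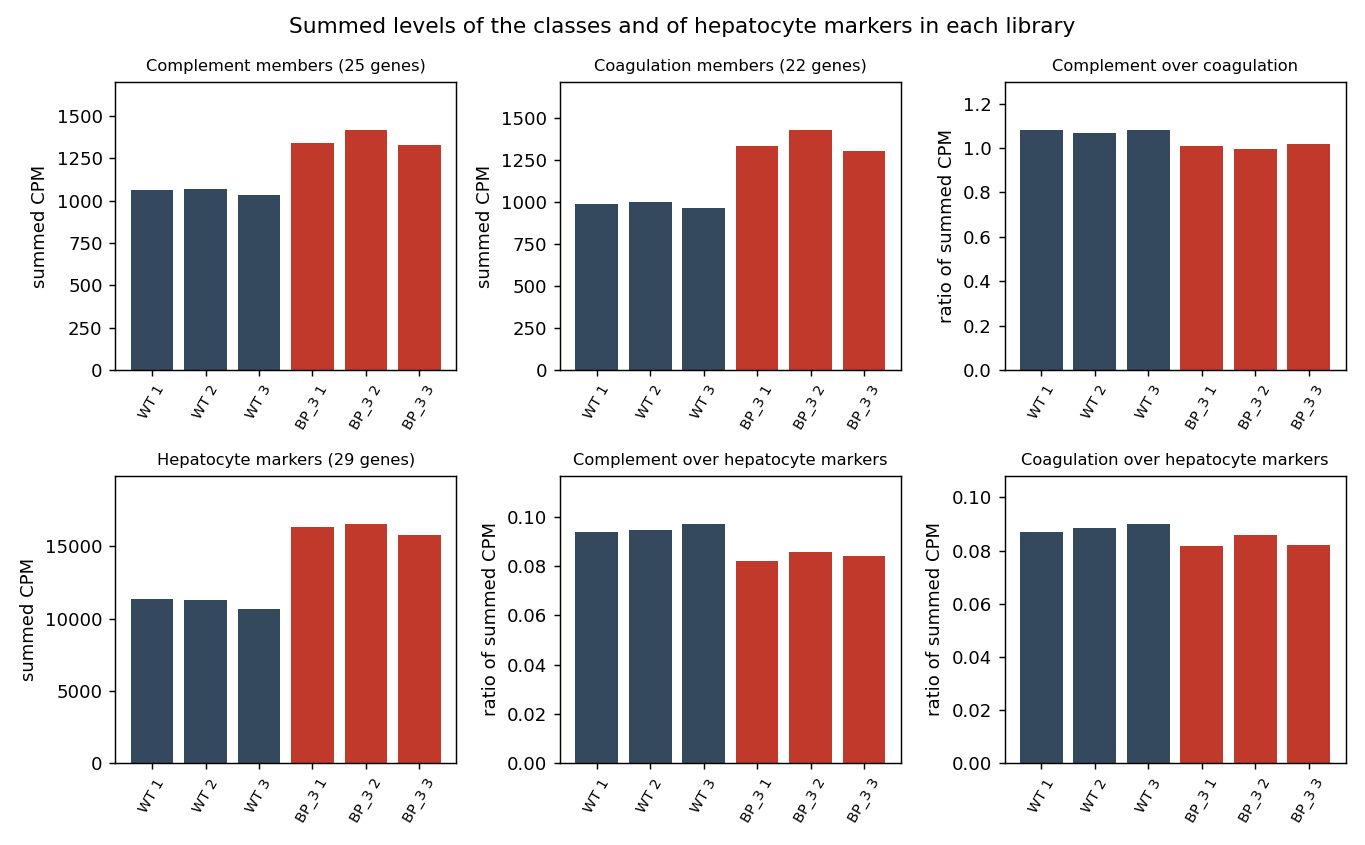
Summed CPM of the complement and coagulation members and of 29 hepatocyte markers, and their ratios, in each library (bars; dark, WT; red, BP_3; axes start at 0). Both class sums and the hepatocyte sum are higher in the 3 BP_3 libraries, and the ratios of the class sums to the full hepatocyte sum are lower there.

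The summed markers of liver and of gut were both higher in the BP_3 libraries. Of 29 hepatocyte markers 15 were called higher and 4 lower, where 6.26% and 4.29% of all rows were, with a median log2 fold change of 0.3, and none was at 0. Of 16 anterior enterocyte markers 7 were called, all higher, and the sum of the 16 was 1.38 times as high in BP_3. All 16 log2 fold changes were above 0, but much of the rise in the sum came from 2 apolipoprotein genes. These were apoa1a, with means of 1760 CPM in BP_3 and 935 CPM in WT, and apoa4b.1. The latter was not called and varied widely, at 759 ± 342 CPM in BP_3 and 411 ± 289 CPM in WT (SD, n = 3). The part of either cell type in the members' rise was not tested. The marker fabp10a, the liver fatty acid binding protein, rose 1.3-fold. Per CPM of fabp10a the complement sum was 2.24 to 2.75 in BP_3 and 2.39 to 2.83 in WT, and the coagulation sum 2.22 to 2.77 and 2.21 to 2.63, so the groups overlapped. Apolipoprotein genes, which gut and yolk cells express too, made up 51.1% to 58.4% of the marker sum. With these 5 genes left out the complement sum per marker sum was 0.185 to 0.202 in BP_3 and 0.192 to 0.211 in WT, and that of coagulation 0.184 to 0.201 and 0.178 to 0.195. The marker sum left had means of 6979 CPM in BP_3 and 5316 CPM in WT. Much of its rise came from tfa, with means of 1920 and 928 CPM, the largest fold of the 29 markers (2.07). No ratio was made with both tfa and the apolipoprotein genes left out. Relative to the full marker sum both classes were lower in BP_3, complement at 0.0822 to 0.0855 against 0.0939 to 0.0972 and coagulation at 0.0816 to 0.086 against 0.087 to 0.0902. With only tfa left out of the full sum, complement was at 0.0932 to 0.0974 in BP_3 and 0.103 to 0.106 in WT. Coagulation then overlapped, at 0.0924 to 0.098 in BP_3 and 0.095 to 0.0982 in WT. Whether the groups differed in these ratios thus depended on the markers used. Markers also differed among themselves, since ttr and apoba rose 1.82-fold and 1.86-fold while ahsg1 and igfbp1a fell by 0.82 and 0.47 on the log2 scale.

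Among other genes of the pathways, 4 of 16 further complement genes tested were called, all of them higher (25%, against 6.26% of all rows). The factor H-like genes cfhl2, cfhl4 and cfhl5 rose 1.58-fold, 1.43-fold and 2.32-fold, and c1r, a protease of the C1 complex, 2.09-fold. Of these cfhl5 and c1r were low, with BP_3 means of 1.53 and 1.84 CPM. The C1 inhibitor gene serping1, the surface inhibitor gene cd59 and the receptor chain gene itgb2 did not pass. Of 22 further coagulation genes tested 2 were called, both higher, namely a2ml of the protease-trapping macroglobulins (1.37-fold) and lman1, a carrier of factors V and VIII through the secretory pathway (1.39-fold). The genes f8, vwf, thbd, tfpia and plat did not pass. The share of these 22 called higher was 9.09%, against 6.26% of all rows tested, and it rests on 2 genes. In either direction 10.6% of all rows were called. The factor XIII A chain gene f13a1a.1, which was called higher, is not among these 22, since it was listed with the thrombocyte markers.

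Regulators of the hepatic acute phase and of hepatocyte transcription gave no call upward. Of 17 such genes tested 4 were called, all of them lower, where 4.29% of all rows were called lower, and 1 of these was hamp, the iron hormone gene. The interleukin-6 feedback gene socs3a fell by 1.6 on the log2 scale, from 40.9 ± 2.35 to 13.4 ± 1.73 CPM (SD, n = 3). The acute phase transcription factor genes cebpb and cebpd fell by 0.69 and 0.84. The hepatocyte factor gene hnf4a did not pass, with an estimate of -0.02 ± 0.10 (SE) on the log2 scale. The acute phase haptoglobin gene hp was level at -0.03 ± 0.07 (SE).

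Over the 6 libraries the levels of the hepatic members followed 1 profile to differing degrees. The profile was the mean standardized log2 CPM of the 41 members tested other than tissue factor and C1q genes. Of the 46 members 26 had a Pearson r of at least 0.8 with it, and 5 had an r below 0, namely c6, c7a, f3a, f3b and proca. Because 41 of these members are part of the profile, a high r is partly built in. The share of all rows at that r is not given here, so the count is no result about the members. The 5 other named genes with a profile most like it were rhoab, cfhl4, cidec, sumf2 and hsp90aa1.2, with r between 0.998 and 0.999. Their libraries share the step between the groups, so the 6 points form 2 groups, and the likeness is a description.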

How the data were processed

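RNA sequencing libraries from 3 BP_3 and 3 WT samples were compared. The authors deposited raw counts per gene name, 1 table of 32053 rows per library, with no normalization. How reads were aligned and counted, and on which annotation or strand, was not given in the sources used here. Overlapping, antisense and near-identical genes cannot be told apart. The genome build per the submitters' processing notes is mm9, a mouse build, so no coordinates are given. Gene lengths of that annotation were not used, so CPM values of different genes are set against each other only as counting depth, not as expression.

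Rows were filtered with filterByExpr (23167 kept, 8886 removed), scaled with TMM and compared by edgeR 4.0.16 in R 4.3.3 (glmQLFit, glmQLFTest, no covariates), with Benjamini-Hochberg adjustment over all rows and a threshold of 0.05. The SE of a log2 fold change is its size over the root of the F statistic. On simulated counts of the 23167 rows of this comparison the test recovered 66.7% of 1.5-fold, 91% of 2-fold and 100% of 4-fold changes. Each of 3 simulated sets had 200 changed rows, where 2446 rows were called in the data. The adjusted p depends on how many rows change, so these rates need not hold for the data. Changed rows were drawn from those with a WT mean of at least 1 CPM, and the simulated spread followed the fitted trend over levels. These rates therefore do not cover c1qa, c1qb, c3a.4 and f9a, whose WT means were lower, or genes of wide spread such as fga and c4. Same-numbered libraries deviated together, with correlations of deviations from group means of 0.182, 0.139 and 0.415 for replicates 1 to 3 over 18993 rows, and so values with the replicate block stand beside results they change. Libraries of different number correlated as well in replicates 1 and 2 (0.177 for BP_3 replicate 1 with WT replicate 2, and 0.169 for BP_3 replicate 2 with WT replicate 1), so replicate 3 alone stood out by its number. Replicate 3 also had the lowest total count in each group, 24000785 in BP_3 and 23567603 in WT. Number and depth thus cannot be told apart there. With the block 21.7% of all rows were called, against 10.6% without. Alternatives were DESeq2 1.42.0, limma-voom (limma 3.58.1), other scaling and filters, rows of 1 name summed, each library left out, and BP_3 replicate 1 alone. Leaving out both replicate 3 libraries was added after seeing the data. Neighbouring genes were read from RefSeq's GRCz12tu table, which held 46 of the 50 names. Members and lists were chosen with earlier results of these data known, so no list was tested. All members are accounted for, with values per library for those past the threshold, for tissue factor, C1q and fibrinogen genes, and for the extremes of each role. Genes of like profile were the 5 with the highest r among named non-members whose mean log2 CPM reached 1. Intervals and floors cover counting error only. An exact permutation test of 3 against 3 libraries cannot give a p below 0.1 and was not used.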

Additional observations from a re-analysis of the deposited data

How the results depend on the processing

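The direction of all 20 called members was the same under every alternative run, and 10 of the 46 members, none of them called, changed sign in at least 1. With BP_3 replicate 1 alone the counts fell to 4 complement and 6 coagulation members higher, with 1 coagulation member (fga) lower, and 1.82% of all rows were called. That fit has 1 exposed library, which is assumed to vary like the WT libraries. In this setting log2 fold changes turned to -0.14 for c1qb, -0.04 for masp1, -0.04 for c8b, -0.01 for f9a and -0.68 for fga. With both replicate 3 libraries left out they turned to -0.17 for c4, -0.04 for masp1, -0.02 for c8b, -0.11 for f7 and -0.04 for f9a, and with rows of 1 name summed proca turned to 0.02. With single libraries left out, complement members called higher numbered 7 to 9 and coagulation members 10 to 12, while 4.67% to 10.6% of all rows were called. Across those fits f3a ran from -0.16 to 0.06, fga from -0.02 to 0.49, c4 from -0.15 to 0.63, masp1 from 0 to 0.11, f7 from -0.04 to 0.15, f9a from -0.07 to 0.16 and cfd from -0.04 to 0.15. With the replicate block 10 complement and 13 coagulation members were called higher, through c3b.1, mbl2 and fgg, and no other member changed its call. The share of all rows called in either direction rose there too, from 10.6% to 21.7%, so the gain is not particular to the members. Scaling by DESeq2 size factors left the complement ratio of BP_3 to WT at 1.29 and gave 1.37 for coagulation, against 1.38. Except where a library is named, the cause was not tested. Depth limits c3a.4, f9a and the C1q genes, which had under 100 counts per library.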

Other observations

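Over all rows tested 6.26% were called higher. Of 15 endothelial markers 4 were called, all higher, namely plvapb, stab1, lyve1b and mrc1a. The last 3 encode uptake receptors of scavenger endothelium, and they rose 1.54-fold, 1.63-fold and 1.44-fold. The related gene stab2 did not pass (0.36 ± 0.11 SE, edgeR adjusted p = 0.0558), though every BP_3 library was above every WT library. The general endothelial genes kdrl and cdh5 had log2 fold changes of 0.06 ± 0.08 and 0.09 ± 0.11 (SE). In tek (0.45 ± 0.13 SE, edgeR adjusted p = 0.0552) and fli1a (0.18 ± 0.08 SE) the BP_3 libraries were all above WT without a call. Of the 15 endothelial markers 13 had a log2 fold change above 0, where 49% of all rows tested did. Of 15 macrophage markers mpeg1.1, marco, havcr1 and slc7a7 rose, with the scavenger receptor gene marco at 7.6 ± 0.935 CPM in BP_3 and 3.72 ± 0.674 CPM in WT (SD, n = 3). Of 8 erythrocyte markers tested 6 rose, and the list summed to 653 to 830 CPM in WT and 983 to 1300 CPM in BP_3.

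Of 10 thrombocyte markers tested 1 rose (10%, against 6.26% of all rows tested). This was the factor XIII A chain gene f13a1a.1, while itga2b, gp1bb and mpl did not pass. The gene f13a1a.1 had 132, 97 and 66 counts in BP_3 and 0, 2 and 0 in WT, a ratio of 131 per total counts with an exact 95% counting interval of 36 to 1090. That interval pools the counts of each group and leaves out spread between libraries. The row passed the filter on low counts only through the BP_3 libraries, where it was high. Its paralogue f13a1b had a log2 fold change of 0.24 ± 0.14 (SE).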
